A study of Mus musculus with 2 samples.

Results

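The genes described here encode the Eph receptors and ephrins, the Slits and Robos, and the netrins and RGMs with their receptors, families of cues and receptors that steer growing axons. Members were all probe sets on the array whose only annotated symbol belonged to 1 of these families. The rule goes by symbol, not by signal, although the families were picked with earlier results of these data known. The rule found 91 probe sets of 42 genes, out of 34958 probe sets of 18194 genes with 1 symbol. Ephb2, a receptor of the same family, had no such probe set and was not analysed here. The samples were wild-type mouse embryos taken whole at E14.5, whose total RNA was isolated with RNAzol, labelled with biotin and hybridised to 2 Affymetrix Mouse Genome 430 2.0 arrays. The arrays are duplicates of 1 condition, so there was no treatment, mutant or other group to compare, and no test was made. For embryos of this stage the paper gives the strain as NMRI or C57/BL6, and it does not state which was arrayed. Whether each array had RNA of its own embryos is not stated either, so the spread between duplicates can be purely technical.

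Ephs are receptor tyrosine kinases that bind ephrins on neighbouring cells, and signals can run into both cells of a contact. A-type ephrins are held in the membrane by a lipid anchor and B-type ephrins cross it. Slits are secreted repellents that act through Robo receptors, best known for keeping axons from lingering at the midline of the nervous system. Netrins attract axons through Dcc and repel them through Unc5 receptors, and neogenin (Neo1) binds both netrins and the RGM proteins. Several of these genes also act outside the nervous system, in vessels, epithelia, limb and gut.

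All values are signals as deposited, on a linear scale. A signal was compared with a background bound of its own array, which was 27.9 on array 1 and 33.8 on array 2. Each bound is the 95th percentile of the signals of 81 probe sets for chemosensory receptors (olfactory, vomeronasal, and bitter taste), genes taken as silent in the embryo. To count as above background, a gene needed a probe set over the bound on array 1 and one over the bound on array 2. Where a gene has several probe sets, its values below are those of the probe set with the highest mean. Probe sets differ in how strongly they respond to the same amount of RNA, so signals of different genes were not ranked. In RNA of a whole embryo, fewer cells of a type and less RNA per cell cannot be told apart. The markers of the embryo's tissues passed in 31 of 31 measured cases. Among them were the neuron genes Tubb3 (471 and 506) and Dcx (488 and 415) and the endothelial genes Kdr (180 and 167) and Tek (104 and 120). Of the sperm and photoreceptor genes 0 of 8 passed, with the sperm gene Prm1 just under both bounds at 27.6 and 32.8.

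Of the 42 axon guidance genes, 31 (73.8%) lay above background on both arrays, beside 65.5% of all genes. Another 3 genes passed on 1 array only (Epha2, Unc5a and Unc5d), and 8 on neither (Epha6, Epha8, Epha10, Slit3, Robo3, Ntn3, Ntn5 and Ntng2). All 8 ephrin genes passed, as did 9 of 13 Eph receptor genes, 2 of 3 Slits, 3 of 4 Robos, 2 of 4 secreted netrins, 1 of 2 netrin-G genes, 2 of 4 Unc5 receptors, and both members of the Dcc and Neo1 pair and of the Rgm pair. At the level of probe sets, 53 of 91 passed on both arrays, which is 58.2% beside 55.6% of all probe sets with 1 symbol.

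The number of probe sets per gene moved with these counts. Genes with 1 probe set passed in 9 of 18 cases (50%), beside 48.6% of all such genes, and genes with 2 in 9 of 11 cases (81.8%), beside 76.1%. All 5 genes with 3 probe sets and all 8 with 4 or more passed, where the shares over all genes were 87.4% and 93.6%. In the classes with 1 and 2 probe sets the share of axon guidance genes was thus near that of all genes, and the other classes hold few members. Of the 11 genes that did not pass, 9 had a single probe set, and the exceptions were Robo3 and Ntng2 with 2 each.

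**Figure D1:**
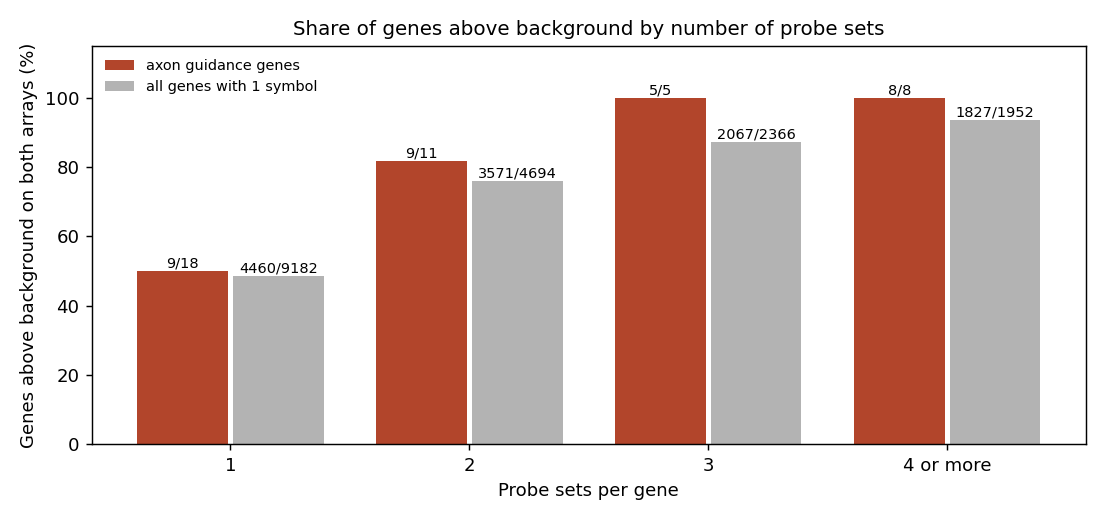
Share of genes above background on both arrays in percent, by number of probe sets per gene, for the axon guidance genes (red) and for all genes with 1 symbol (grey), with the numbers of genes over the bars. The red bars stand at 50%, 81.8%, 100% and 100%, next to grey bars at 48.6%, 76.1%, 87.4% and 93.6%.

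Promoters rich in CG dinucleotides were found among genes on both sides of the bound. RefSeq promoters (GRCm38.p6) were found for 36 of 42 genes, 43 in all since some genes have several starts, and the 250 bases before each start were read. A promoter was counted as CpG-rich when G and C made up more than 50% of these bases and the CG dinucleotide was present at more than 0.6 times the number its C and G content would give. This held for 25 of 43 promoters (58.1%), beside 47.5% of the promoters of all genes on the array. Among genes above background it held for 20 of 33 (60.6%), beside 58.9%. Among genes not above background it held for 5 of 10 (50%), beside 22.4%. With 10 promoters, this share rests on few genes and was not tested. The 5 belong to Epha6, Epha8, Epha10, Slit3 and Unc5a, each measured by 1 probe set. Unc5a was above the bound on array 1 (1.42 times). On their higher array, Epha6 had 0.99, Epha10 0.92, Epha8 0.91 and Slit3 0.64 times the bound. On their lower array, Epha6 had 0.67, Epha10 0.85, Epha8 0.68, Slit3 0.54 and Unc5a 0.91 times the bound. The letters GGGCGG, known as the GC box, which contain a CG themselves, were present on either strand in 30 of 43 promoters (69.8%), beside 48.4% for genes on the array and 32.7% for all promoters of the table. The letters TATAAA on either strand were in 4 of 43 (9.3%), beside 8.8% and 12.4%. These matches describe the sequence and show no binding.

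The promoters of 4 genes, picked after their values were seen, show a dense and a sparse one on each side of the bound. Neo1 (signals of 732.5 on array 1 and 741.4 on array 2) and Robo4 (83.4 and 77.3) were above background, and Epha8 (25.5 and 22.9) and Ntn5 (7.3 and 5.2) were not. In the sequences, which run 5′ to 3′ and end just before the start, capitals mark each CG. The Neo1 window (chr9:59036442-59036691, minus strand) holds 45 of them and the Epha8 window (chr4:136956817-136957066, minus strand) holds 46. The Robo4 window (chr9:37401722-37401971, plus strand) and the Ntn5 window (chr7:45683772-45684021, plus strand) hold 2 each.
Neo1: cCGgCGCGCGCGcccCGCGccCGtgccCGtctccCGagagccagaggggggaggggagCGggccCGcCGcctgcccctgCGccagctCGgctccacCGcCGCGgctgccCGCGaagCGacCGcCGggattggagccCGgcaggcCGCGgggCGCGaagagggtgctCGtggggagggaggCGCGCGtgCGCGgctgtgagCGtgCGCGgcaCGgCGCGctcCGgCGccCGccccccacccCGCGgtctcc
Epha8: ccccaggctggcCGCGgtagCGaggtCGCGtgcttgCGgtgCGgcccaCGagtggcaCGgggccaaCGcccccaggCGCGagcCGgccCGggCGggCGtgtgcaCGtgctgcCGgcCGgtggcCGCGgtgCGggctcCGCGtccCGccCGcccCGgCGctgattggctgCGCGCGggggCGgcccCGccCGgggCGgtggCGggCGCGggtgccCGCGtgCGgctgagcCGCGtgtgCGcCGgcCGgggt
Robo4: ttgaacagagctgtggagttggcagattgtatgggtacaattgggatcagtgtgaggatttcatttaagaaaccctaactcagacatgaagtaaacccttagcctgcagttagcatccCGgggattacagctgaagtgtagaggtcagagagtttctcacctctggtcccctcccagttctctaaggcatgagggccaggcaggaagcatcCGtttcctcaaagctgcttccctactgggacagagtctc
Ntn5: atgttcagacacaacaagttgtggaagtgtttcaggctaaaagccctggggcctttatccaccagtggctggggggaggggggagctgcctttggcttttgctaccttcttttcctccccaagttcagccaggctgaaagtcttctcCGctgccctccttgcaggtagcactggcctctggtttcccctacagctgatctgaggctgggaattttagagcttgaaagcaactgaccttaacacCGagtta
The 4 genes were picked to show each combination, so they say nothing on how often it occurs. Over the promoters of all genes on the array, the median was 15 CG where the gene was above background and 5 where it was not. Slit3, at 17.8 and 18.1, was a further gene below the bound with a dense promoter, of 35 CG.

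**Figure D2:**
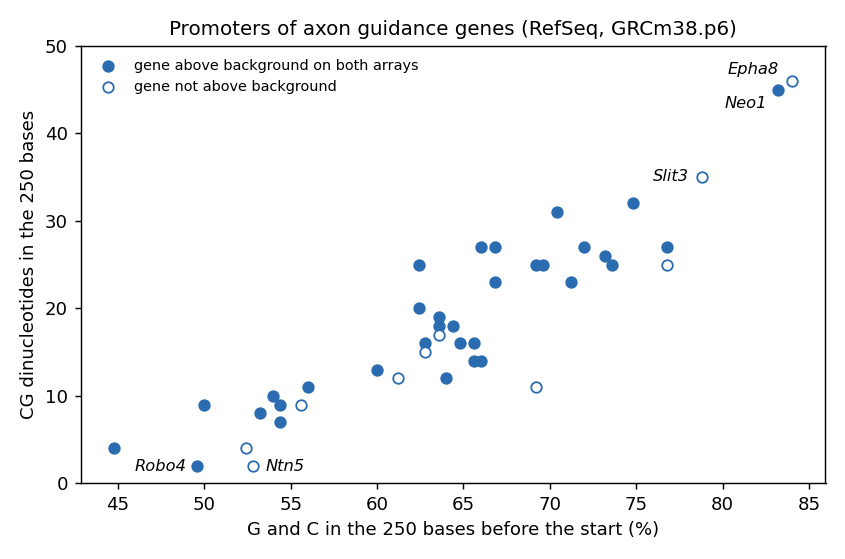
Promoters of axon guidance genes, with the percentage of G and C in the 250 bases before the start on the x axis and the number of CG dinucleotides on the y axis, filled where the gene was above background on both arrays and open where it was not. Open points lie at both ends, with Epha8 at 46 and Slit3 at 35 CG and Ntn5 at 2.

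Among the EphA receptors, 5 of 9 genes were above background. Epha3 had signals of 353.8 and 355.4, and 3 of its 4 probe sets passed. Epha4, which guides motor axons in the limb and holds corticospinal axons to their side of the spinal cord, had 159.9 and 176. A further probe set of Epha4 passed, and the other 3 did not, at 27.7 and 25.9, 12.2 and 7.5, and 0.4 and 0.5. Epha7 had 140.6 and 136.6, with 2 of 4 probe sets above the bound. The highest probe sets of these 3 receptors had at least 4.0 times the bound on either array. Epha5, a receptor of forebrain and retinal axons, passed through 1 of 4 probe sets at 71.4 and 78.1. The other 3 had signals from 14.6 to 31.5, and 1 of them (31.1 and 27.4) was above the bound on array 1 only. Epha1, an epithelial receptor, passed close to the bound at 32.2 and 39.7, again through 1 probe set of 3. With the median over the probe sets of a gene in place of any probe set, 2 EphA receptors were above background, and Epha1, Epha4 and Epha5 were not.

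The EphA receptors that did not pass were each measured by 1 probe set. Epha2, a receptor of epithelia, had 25.3 on array 1 and 57.2 on array 2, a 2.26-fold difference that put it below the bound on one array and above it on the other. Epha6 had 18.8 and 33.6, the second of which is just under the bound of its array. Epha8 was given above with its promoter, and Epha10, which is thought to lack kinase activity, had 23.8 and 31.1. With 1 probe set per gene these signals do not show that the transcripts were absent.

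All 4 measured EphB receptors passed, each through its only probe set, beside 48.6% of all genes with 1 probe set. The difference rests on 4 genes and was not tested. Ephb1 had signals of 141.1 and 130.3, and Ephb3, which acts in commissural axons and in the gut epithelium, had 231.1 and 174.1. Ephb4, the receptor of venous endothelium, had 106.1 and 101.4. Ephb6, whose kinase domain is inactive, was near the bound at 31.9 and 40.6, which is 1.14 and 1.2 times the bound.

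Every ephrin gene was above background. Of the A-type ligands, Efna2 (181.9 and 205) and Efna5 (214.6 and 214.5) are known for the gradients by which retinal axons find their place in the midbrain. Efna2 passed through both of its probe sets, and Efna5 through 1, its other one having 16.9 and 12. Efna3 had 102.1 and 76.0, with 38 and 44.3 in its other probe set, and Efna4 had 94.7 and 87.2. Efna1, a ligand also made by endothelium, had 58.7 and 65.1, and its other probe set (30.5 and 25.7) passed on array 1 only. Of the 5 A-type genes, Efna1 was the one under 2 times the bound on an array, at 1.93 times on array 2.

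The B-type ephrins passed with signals over 5 times the bound on both arrays. Efnb1, the X-linked gene mutated in human craniofrontonasal syndrome, had 227 and 268.2, and all 3 of its probe sets passed. Efnb3, which marks the midline of the spinal cord, had 213.7 and 214.3 in its only probe set. Efnb2, the arterial partner of Ephb4, had 216.1 and 198.8, and its 4 probe sets disagreed. A second one had 172.5 and 161.7, and the others had 22.5 and 32.9 and 4.5 and 5.2, below the bound, although the annotation gives the same source sequence for all 4.

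**Figure D3:**
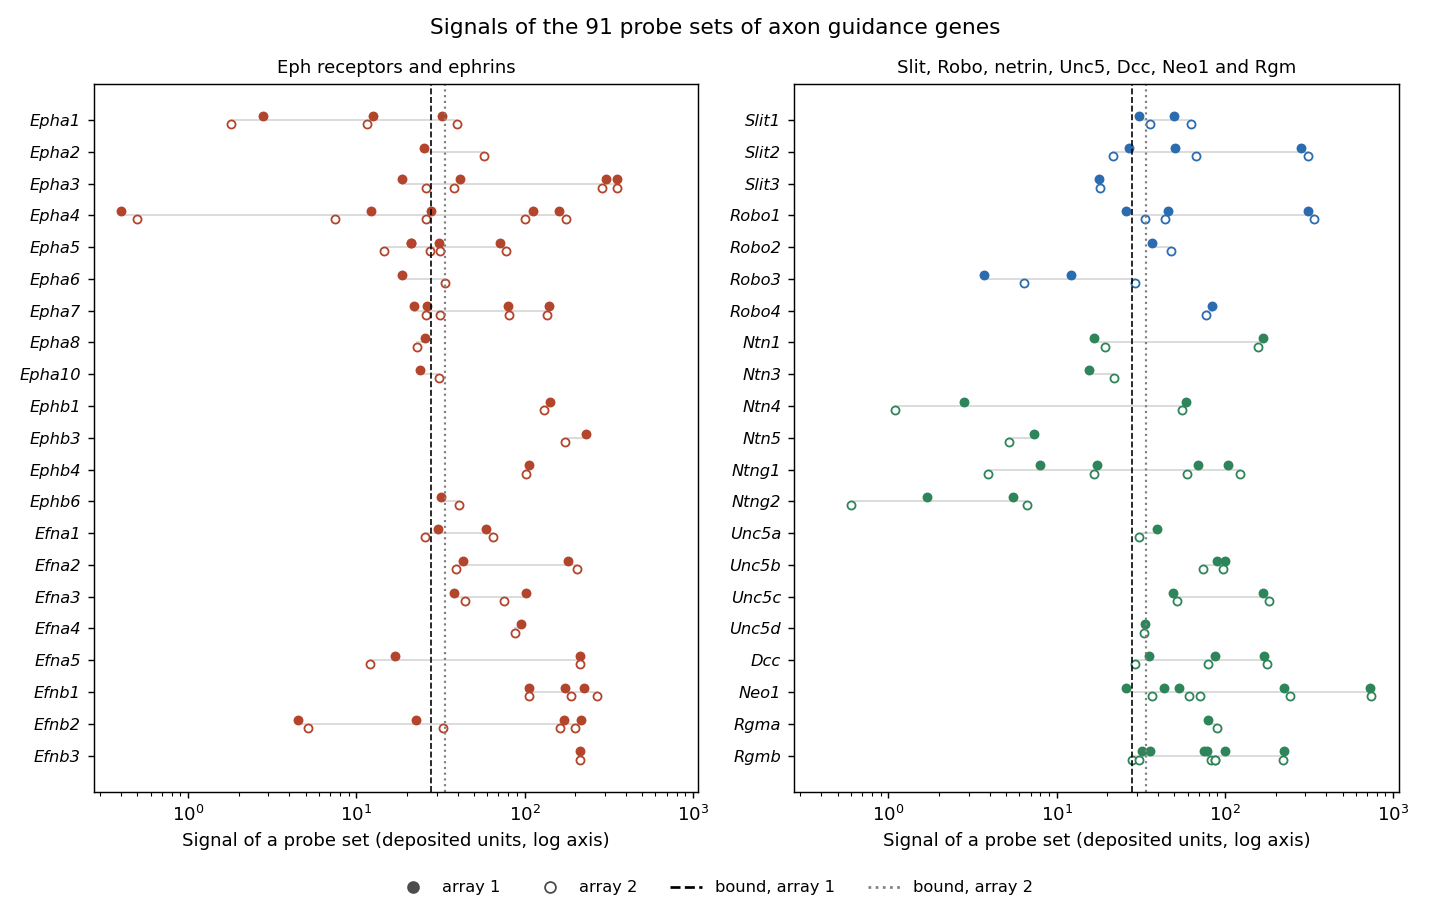
Signals of the 91 probe sets of the 42 genes on array 1 (filled) and array 2 (open), on log axes, a row per gene, with the bounds of 27.9 (dashed) and 33.8 (dotted). The ephrin rows all reach past both bounds, whereas Ntn5 and Ntng2 stay below 8, and genes such as Epha4 and Efnb2 have probe sets on both sides.

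Of the Slits, Slit2, a repellent of the floor plate and of many other tissues, had 283.7 and 312.2 and passed through 2 of 3 probe sets. Slit1, which is expressed mainly in the nervous system, had 49.9 and 62.9, and both of its probe sets passed. Slit3, with 1 probe set at 17.8 and 18.1, did not. All 4 Slit probe sets above background were higher on array 2, and none lay beyond 1.5-fold. Their median log2 difference (array 2 minus array 1) was 0.27. They belong to 2 genes, and over all probe sets above background 11069 of 22138 were higher on array 2. Other families varied too, with 5 of 6 higher for Dcc and Neo1 and 0 of 2 for the secreted netrins.

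Of the Robo genes, Robo1 had 312.2 and 338.6, with 2 of 3 probe sets above the bound. Robo2, measured by 1 probe set, had 36.7 and 47.8, or 1.31 and 1.41 times the bound. Robo4, which is found on endothelial cells, was given above. Robo3, which lets commissural axons cross the midline, was below the bound in both of its probe sets, with 3.7 and 29.4 in one and 12.2 and 6.4 in the other.

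Ntn1, the netrin of the floor plate, had 167.9 and 157.5 in one probe set and 16.6 and 19.5 in the other. Ntn4, a netrin of basement membranes, passed through 1 of 2 probe sets at 58.8 and 55.5, the other having 2.8 and 1.1. Ntn3, at 15.5 and 22.0, and Ntn5 lay below the bound with 1 probe set each. The secreted netrins were thus divided, 2 to 2, and with the median over the probe sets of a gene Ntn1 was the only one above the bound. Ntng1 encodes a netrin held in the membrane by a lipid anchor, and passed at 104.9 and 122.5 through 2 of 4 probe sets. Its relative Ntng2 had 5.5 and 6.7 in one probe set and 1.7 and 0.6 in the other, both far below the bound.

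Of the netrin receptors, Dcc had 171.6 and 178.6 and passed through 2 of 3 probe sets. Neo1 passed through 4 of its 5 probe sets. The Neo1 probe set with 732.5 and 741.4 has an ID that marks possible cross-hybridisation, but another without this mark had 225.8 and 244.8. Unc5c, a receptor for repulsion in the hindbrain and cerebellum, had 167.6 and 182.6, and Unc5b, which is also found on endothelium, had 99.7 and 97.3, each with both probe sets above the bound. Unc5a (39.6 and 30.7) and Unc5d (33.7 and 33.2) passed on array 1 only. Both lay close to the bound, which is higher on array 2.

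The RGM genes both passed. Rgma, a repellent of retinal axons in the chick, had 78.8 and 90.2 in its only probe set. Rgmb had 225 and 220.7, and 4 of its 6 probe sets passed on both arrays, with the other two above the bound on array 1 only, at 36.1 and 32.3. Both ligands were thus measured above background beside their receptor Neo1.

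In each of the 3 systems some ligands and some receptors were above background. On the Eph side 9 of 13 receptors (69.2%) stood beside 8 of 8 ligands. On the Slit and Robo side it was 3 of 4 Robo genes (75%) beside 2 of 3 Slit genes (66.7%). On the netrin and RGM side it was 4 of 6 receptors (66.7%) beside 5 of 8 genes counted as ligands (62.5%). These 8 include the 2 netrin-G genes, of which 1 passed. Their known ligands are those of Lrrc4c and Lrrc4, so they are not counted here beside their own partners. Apart from the ephrins these shares were near the 65.5% of all genes, and the numbers of genes are small. The ephrin genes have 1 to 4 probe sets each, and the shares over all genes in these classes ran from 48.6% to 93.6%. Whether the 8 of 8 goes beyond these shares was not tested. The signals do not show in which tissue or cell a transcript was present, or whether ligand and receptor lay next to each other.

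Lists of partners of these families, of genes for axon growth and adhesion and of floor plate genes were read as well. Of their genes outside the families, 69 of 71 measured genes were above background, beside 65.5% of all genes. The listed genes had a median of 3 probe sets, against 2 for the axon guidance genes and 1 over all genes. Among all genes with 3 probe sets, 87.4% were above background. The part of the number of probe sets in the count was not tested. All 24 partners of Ephs and ephrins passed, among them the exchange factors Ngef (43.4 and 59.7), Vav2 (113.4 and 105.2), Vav3 (109.5 and 114.8) and Tiam1 (203.7 and 191.6). So did all 16 partners of Slits and Robos, with the Robo-binding proteins Srgap1 (263.1 and 277.2), Srgap2 (194.5 and 220.5) and Srgap3 (241.3 and 239.3) and the actin regulator Enah (1187 and 1184). Of the partners of netrins and RGMs, 15 of 17 passed. The exceptions were Dscam, a further netrin receptor, at 26.6 and 31.2, and Lrrc4, the ligand of netrin-G2, at 27.0 and 21.8. Lrrc4c, the ligand of netrin-G1, passed at 62.2 and 49.1, and Flrt2, which binds Unc5 receptors, at 413 and 410. The netrin-G1 gene and its ligand gene were thus both above the bound, and Ntng2 and Lrrc4 both below it. Ntng1 and Lrrc4c have 4 and 3 probe sets, whereas Ntng2 and Lrrc4 have 2 each. Lrrc4 was just under the bound of 27.9 on array 1. With 2 pairs, whether ligand and partner go together was not tested.

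Of the genes for axon growth and adhesion, 10 of 10 passed, with the adhesion molecules Cntn2 (136.3 and 138), L1cam (265.9 and 256.3), Nrcam (119.9 and 95) and Chl1 (328 and 353). The floor plate genes Shh (129.6 and 112), Foxa2 (54.2 and 56.8), Foxa1 (67.4 and 61.8) and Spon1 (235 and 224) passed as well, so that all 5 genes of that list, which includes Ntn1, were above background. Some of these genes are also expressed in endoderm and other tissues of the embryo.

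Between the duplicate arrays, most axon guidance probe sets above background on both had close signals. This leaves out those that crossed the bound, such as that of Epha2 (25.3 and 57.2). Of the 53 probe sets above background on both arrays, 1 differed by more than 1.5-fold after centring, beside 3.74% of all 22138 probe sets above background. It belongs to Neo1 and also has an ID that marks possible cross-hybridisation, with 43.4 on array 1 and 70.7 on array 2. The median log2 difference (array 2 minus array 1) was 0.01 with an SD of 0.21 over the 53 probe sets, against a median of 0.00 and an SD of 0.26 over all. Within 1.2-fold lay 81.1% of them, against 74.2% of all. Probe sets were higher on array 2 in 27 of 53 cases. The most negative log2 differences among the 53 were those of Efna3, at -0.44, and Ephb3, at -0.42. Each difference rests on a single array on either side, so its own error is not known.

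**Figure D4:**
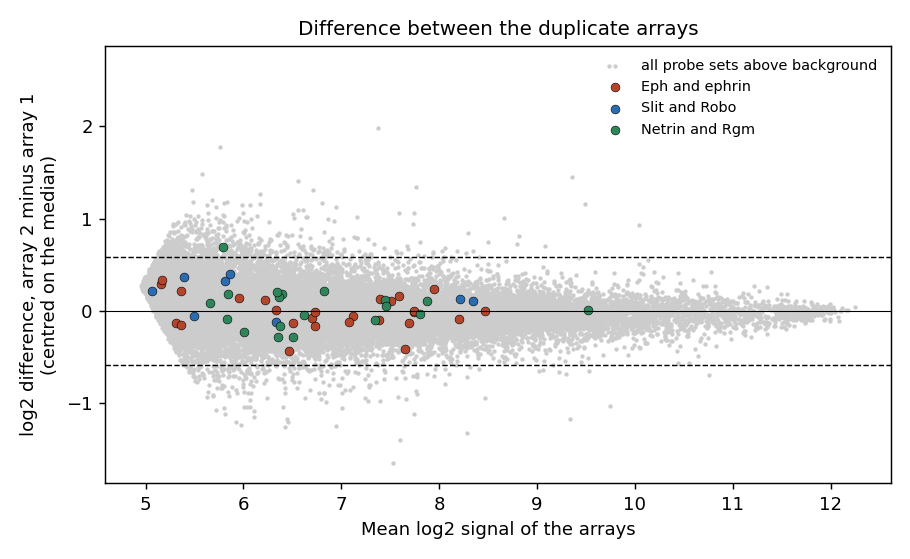
Centred log2 difference between the arrays (array 2 minus array 1) against the mean log2 signal, for all 22138 probe sets above background (grey) and the 53 of axon guidance genes (coloured by system), with dashed lines at 1.5-fold. A single coloured point, of Neo1, lies outside the dashed lines.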

How the data were processed

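The authors processed scans of 2 Affymetrix Mouse Genome 430 2.0 arrays with GCOS 1.3, as the submitters' processing notes state, and deposited linear signal intensities, with 1 value for every probe set of an array. These had been scaled to a mean of 100.0 per array once the lowest and highest 2% were trimmed, and were used as given. Detection calls were not used here. Probe sets were named from the platform annotation, and for 34754 of 34958 with 1 symbol the name was checked or updated through RefSeq (GRCm38.p6, names and promoters only). The bound was the 95th percentile of receptor probe sets per array. Differences between arrays were taken as log2 ratios of probe sets above the bound on both arrays and centred on their median. The members and gene lists were chosen with earlier results of these data known. Every member is named, as are the first 4 measured genes of each partner list and the exceptions where 5 or fewer. Rock2, Ptk2 and Pak1 were not analysed here. With a single condition there was no comparison to test, and no p-value is given. Alternatives were other bounds, rules per gene, probe sets, arrays and normalizations. The steps were tested on simulated data, in which nearly all expressed genes were set well above the bound. That test therefore says little on genes near the bound. Software was Python 3.11.15 (numpy 2.4.6, pandas 2.3.3, statsmodels 0.14.6 for loess, scipy 1.17.1, matplotlib 3.10.9).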

Additional observations from a re-analysis of the deposited data

How the results depend on the processing

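The number of axon guidance genes above background was 31 and lay between 27 (median over the probe sets of a gene) and 35 (bound at the 90th percentile) under the alternatives that used both arrays, and between 32 and 33 with either array alone. The share over all genes moved as well, from 65.5% to 57.6% with the median and 68.8% with the 90th percentile bound. It was 66.8% with array 2 alone and 69.0% with array 1 alone. Of the 42 genes, 33 kept their side of the bound under all 8 alternatives. The 9 others were Epha1, Epha2, Epha4, Epha5, Epha10, Ephb6, Ntn4, Unc5a and Unc5d. Epha2, Epha10, Unc5a and Unc5d passed with the 90th percentile bound, Epha2 also with array 2 alone and both Unc5 genes with array 1 alone. Epha1 and Ephb6 fell below the 99th percentile bound, and Ephb6 also below the array median. Epha1, Epha4, Epha5 and Ntn4 fell below the bound when the median over their probe sets was used, which left 2 EphA receptors and 1 secreted netrin above it. The number of probe sets above background ranged from 48 to 62, and was 55 with array 2 alone and 60 with array 1 alone. At the 99th percentile bound, which gave the 48, 20173 probe sets of the whole array passed, against 22138 at the bound used. The number differing by more than 1.5-fold between the arrays was 1, and moved to 2 (Epha2 and Robo3, out of all 91) without a filter and with a pseudocount of 16, and to 0 when those marked for possible cross-hybridisation were removed, since the Neo1 probe set is one of them. It stayed at 1 without centring, with quantile normalization, loess or the 99th percentile bound. Over all probe sets above background the number was 829 of 22138. It was 1959 of 45101 without a filter, 732 of 19050 without those marked for possible cross-hybridisation, and from 612 to 839 under the others. No paired analysis was possible because there is a single group.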

Other observations

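Some of these genes lie next to each other in the genome. In the gene order of RefSeq (GRCm38.p6), Efna1, Efna3 and Efna4 follow each other on chromosome 3 with no protein-coding gene between them, and all 3 were above background. Robo1 and Robo2, neighbours on chromosome 16, both passed too. Robo4 and Robo3 are neighbours on chromosome 9, and Robo4 passed whereas Robo3 did not. Epha3 and Epha6 on chromosome 16 have 4 protein-coding genes between them, and Epha3 passed whereas Epha6 did not.

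Probe sets with the same annotated source sequence lay far apart in several cases. The mean signals over both arrays were 298 and 24.2 for such a pair of Slit2, 355 and 39.9 for one of Epha3, 737 and 57.0 for one of Neo1 and 106 and 26.8 for one of Epha4. For Slit2 and Epha4 the bound fell between the 2 probe sets, and for Epha3 and Neo1 both passed. Both Neo1 probe sets of this pair have an ID that marks possible cross-hybridisation.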
